A study of Mus musculus with 6 samples.

Results

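Surface ectoderm and epithelial transcripts were examined as a group of 10 genes, *Krt5*, *Krt8*, *Krt14*, *Krt18*, *Krt19*, *Trp63*, *Epcam*, *Cdh1*, *Tfap2c* and *Cldn6*, taken by name from the 26437 genes measured by RNA-seq in mouse embryos at E10. All 10 were found once each, and all passed the limit on low values (a mean above 0.5). The tissue was the frontal part of the head, which holds both optic vesicles, nearby face-forming tissue and some of the adjoining forebrain. The embryos were either wild-type or homozygous for a null allele of *Rdh10* (*Rdh10* KO), a mutation carried by the whole embryo, in a mixed stock of Black Swiss and C57BL/6 background. Each of the 3 libraries per group was a pool of 3 embryos. *Rdh10* encodes the retinol dehydrogenase that makes retinaldehyde, the precursor of retinoic acid (RA), and its own transcript had 399, 342 and 381 normalized counts across the wild-type pools and 183, 142 and 181 in the *Rdh10* KO pools, where normalized counts are reads per gene divided by a depth factor of the library. Mean *Rdh10* in *Rdh10* KO was 45.1% of that in wild-type (log2 difference −1.16, SE 0.13, adjusted p = 7.35e-05, limma), and the libraries held between 16392777 and 27101025 reads on genes. Nothing in the labels ties the replicates to separate litters, so p-values measure the spread between these pools.

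The face and eye region of the embryo is covered by a thin surface ectoderm, from which the lens, the olfactory epithelium and the epidermis arise. Epithelial cells of this sheet are held together by cadherin and desmosome junctions, sealed by claudins, and braced by keratin filaments. A keratin filament is built from pairs of 1 type I chain (here *Krt14*, *Krt18* and *Krt19*) and 1 type II chain (*Krt5* and *Krt8*). *Krt8* and *Krt18* form the pair of simple, single-layered epithelia, whereas *Krt5* and *Krt14* mark the basal layer once the epidermis stratifies, a step that needs the p53-related factor *Trp63*. In bulk tissue, fewer epithelial cells and less RNA per epithelial cell cannot be told apart.

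On GRCm38 (mm10), *Krt8* and *Krt18* lie side by side on chromosome 15 and point away from each other, with 23.7 kb between them, although they encode partners of different type. *Krt5* lies on the same chromosome, 283.8 kb from *Krt8*. *Krt14* and *Krt19* lie 54.5 kb apart on chromosome 11, with *Krt19* at chr11:100140810-100148665 on the minus strand. *Cdh1* lies at chr8:106603351-106670246 and *Cldn6* at chr17:23679249-23682446. RefSeq promoter windows of the same build (GRCm38.p6), reaching from 250 bases before to 50 bases after the gene start, were matched by symbol for 6 of the 10 genes. The windows of the *Krt8* and *Krt18* pair are shown as the most abundant keratin partners here, and that of *Cldn6* because it is the only gene with a window whose level differed past an adjusted p-value of 0.05. Capitals mark matches, on either strand, to any of the motifs searched.
*Krt8* (chr15:102004293-102004592, minus strand): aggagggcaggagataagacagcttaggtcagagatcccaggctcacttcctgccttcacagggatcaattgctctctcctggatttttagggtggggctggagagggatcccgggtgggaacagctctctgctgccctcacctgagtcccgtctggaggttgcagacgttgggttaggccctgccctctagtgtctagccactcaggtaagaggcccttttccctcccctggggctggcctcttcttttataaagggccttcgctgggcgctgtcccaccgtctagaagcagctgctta
*Krt18* (chr15:102027966-102028265, plus strand): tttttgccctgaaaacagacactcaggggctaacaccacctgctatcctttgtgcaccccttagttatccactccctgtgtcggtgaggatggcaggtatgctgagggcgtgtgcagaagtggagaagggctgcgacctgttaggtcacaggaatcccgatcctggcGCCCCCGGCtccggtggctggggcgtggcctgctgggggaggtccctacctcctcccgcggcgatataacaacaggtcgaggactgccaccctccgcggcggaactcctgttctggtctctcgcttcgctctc
*Cldn6* (chr17:23679115-23679414, plus strand): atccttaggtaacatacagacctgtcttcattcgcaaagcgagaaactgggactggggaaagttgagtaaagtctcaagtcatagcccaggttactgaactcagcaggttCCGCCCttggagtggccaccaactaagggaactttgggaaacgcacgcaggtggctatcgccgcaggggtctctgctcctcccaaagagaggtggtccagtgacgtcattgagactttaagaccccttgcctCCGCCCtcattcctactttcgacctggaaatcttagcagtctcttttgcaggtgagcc
The motifs searched on both strands were AACCGGTT (grainyhead-like factors), GCCNNNGGC (AP-2, the family of *Tfap2c*), GGGCGG (Sp and Klf factors), a direct repeat of AGGTCA with a spacer of 2 or 5 bases (types bound by RA receptors) and CATG repeated after 6 bases (p53 family). The *Krt18* window held 1 AP-2 match, 83 bases before the start, and 16.6% of all 32851 windows held such a match. The *Cldn6* window held 2 Sp and Klf matches, at 140 and 8 bases before the start. The *Epcam* window held 1, against 35.7% of all windows with such a match. These positions are counted from the RefSeq start of each window. GENCODE places the *Cldn6* start earlier, at chr17:23679249, so the match at 8 bases lies inside the gene as placed there. No match to any of these motifs was found in the windows of *Krt5*, *Krt8* and *Krt14*. The *Krt14* window (chr11:100205981-100206280) lies wholly inside the gene as placed by GENCODE (chr11:100203162-100207548, minus strand). The bases before that *Krt14* start were therefore not searched. The direct repeats with either spacer occurred in 0.009% of all windows each, the p53 family motif in 0.712% and the grainyhead-like motif in 0.146%.

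Of the 10 genes, *Krt19* rose to 203% of its wild-type mean in *Rdh10* KO tissue, *Cdh1* rose to 122.9% of its wild-type mean, *Cldn6* fell to 72.9% of its wild-type mean, and 7 genes gave no adjusted p-value under 0.05. A log2 difference is the mean of log2(normalized counts + 0.1) over the *Rdh10* KO libraries less that over the wild-type libraries. It was tested with limma across 22921 genes with Benjamini–Hochberg adjustment, and a gene is written as called when its adjusted p-value is under 0.05 and its log2 difference is beyond 0.85. By this rule 1 of the 10 genes was called higher, against 2.41% of all genes tested, and 0 were called lower, against 0.886%, although *Krt14* and *Cldn6* (2 genes) were lower at an unadjusted p-value under 0.05. The edgeR tests and DESeq2 on recovered reads also called 1 higher and 0 lower. Without the fold limit, 2 of the 10 were higher, against 10.3% of all genes, and 1 was lower, against 9.12%. All 10 genes have a mean above 10 normalized counts, and of the 15272 genes above that mean 28.4% had an adjusted p-value under 0.05 in either direction. The 3 libraries of each group did not overlap for 5 of the 10 genes, *Krt14*, *Krt19*, *Trp63*, *Cdh1* and *Cldn6*, and for 34.6% of all genes tested. The median log2 difference of the 10 genes was −0.10, and that of all genes tested was 0.0036. The differences described next thus belong to single genes and went in both directions.

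**Figure D1:**
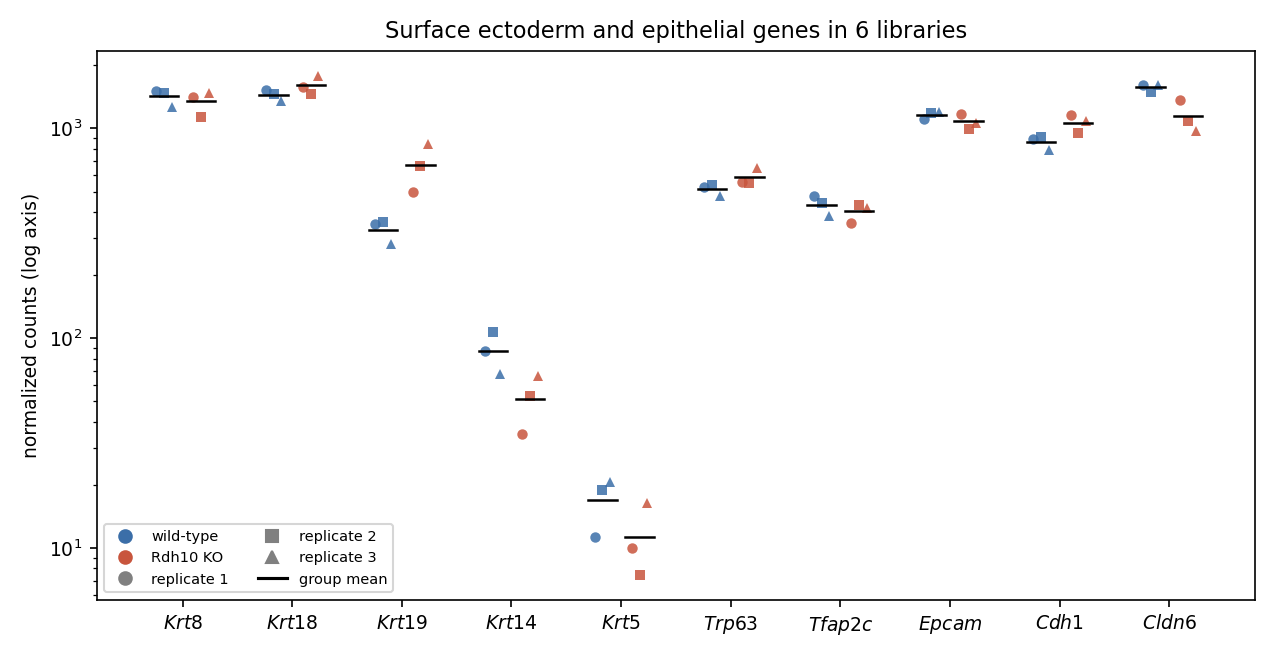
Normalized counts (vertical log axis) of the 10 genes in each of the 3 wild-type (blue) and 3 *Rdh10* KO (red) libraries, with marker shapes for the replicates and black bars for group means. *Krt19* sits between 281 and 356 in wild-type and between 498 and 842 in *Rdh10* KO, whereas *Krt8*, *Krt18*, *Epcam* and *Tfap2c* overlap between the groups.

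Among the keratins, *Krt19*, a small type I chain of simple epithelia and of the embryonic periderm, had 349, 356 and 281 normalized counts across the wild-type pools and 498, 661 and 842 in the *Rdh10* KO pools. Every *Rdh10* KO library lay above every wild-type library, and the spread among the *Rdh10* KO libraries, 25.9% of their mean, was wider than the 12.6% in wild-type. The means were 329 ± 41.4 and 667 ± 172 (SD, n = 3 each), and the log2 difference was 0.996 (SE 0.16, 95% confidence interval 0.65 to 1.34, adjusted p = 0.000721, limma). An exact two-sided permutation test gave p = 0.1, the smallest that 3 libraries against 3 allow. Among 11218 genes with a mean above 100 normalized counts, the fold change of *Krt19* ranked 189 from the top. With each library left out in turn, its log2 difference stayed between 0.81 and 1.19. The call was lost without wild-type replicate 1 (adjusted p = 0.0583, limma), without wild-type replicate 2 (0.0519), in limma without an intensity trend (0.0868) and, through the fold limit, without *Rdh10* KO replicate 3 (log2 difference 0.81, adjusted p = 0.0348).

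The simple-epithelial pair did not pass the test. *Krt8*, the type II partner, had 1513, 1477 and 1264 normalized counts across the wild-type pools and 1416, 1137 and 1478 in the *Rdh10* KO pools. *Krt18*, its type I partner, had 1521, 1452 and 1345 in the wild-type pools and 1570, 1454 and 1781 in the *Rdh10* KO pools. For both genes the groups overlapped. The log2 difference of *Krt8* was −0.08, with a 95% confidence interval of −0.30 to 0.14 (adjusted p = 0.653, limma), and that of *Krt18* was 0.15, with an interval of −0.036 to 0.34 (adjusted p = 0.271). A change of *Krt8* or *Krt18* as large as that of *Krt19* lies outside these intervals. The direction for *Krt8* turned to 0.034 without *Rdh10* KO replicate 2. A processed pseudogene, *Krt8-ps*, shares 941 bases with *Krt8* at 98.6% identity, and was given 12.8 normalized counts on average against 1381 for *Krt8*.

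The basal-layer pair was scarce at this stage. *Krt14* had 87.0, 107 and 67.7 normalized counts across the wild-type pools and 35.1, 53.3 and 65.9 in the *Rdh10* KO pools. The groups did not overlap, but the highest *Rdh10* KO library lay just below the lowest wild-type library. Mean *Krt14* in *Rdh10* KO was 59.0% of that in wild-type, with a log2 difference of −0.78 (SE 0.27, 95% confidence interval −1.36 to −0.21), and the adjusted p-value of 0.0548 (limma) fell short of the threshold. It was under 0.05 in 6 of 17 alternative analyses, among them edgeR (0.0233 with the quasi-likelihood test and 0.0179 with the likelihood ratio test) and DESeq2 (0.0394) on the recovered reads, and in none of the 6 that left out a library. *Krt5*, the partner of *Krt14*, had 11.2, 18.9 and 20.7 normalized counts across the wild-type pools and 10.02, 7.47 and 16.5 in the *Rdh10* KO pools, from 7 to 22 reads a library. Its groups overlapped, and its interval of −1.65 to 0.43 on the log2 scale leaves room for a fall as large as that of *Krt14* or a small rise. *Gm11940*, an antisense RNA of 12.02 normalized counts on average, shares 63 bases with *Krt14* at 95.2% identity, and whether reads were counted by strand is not given in the sources used here.

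**Figure D2:**
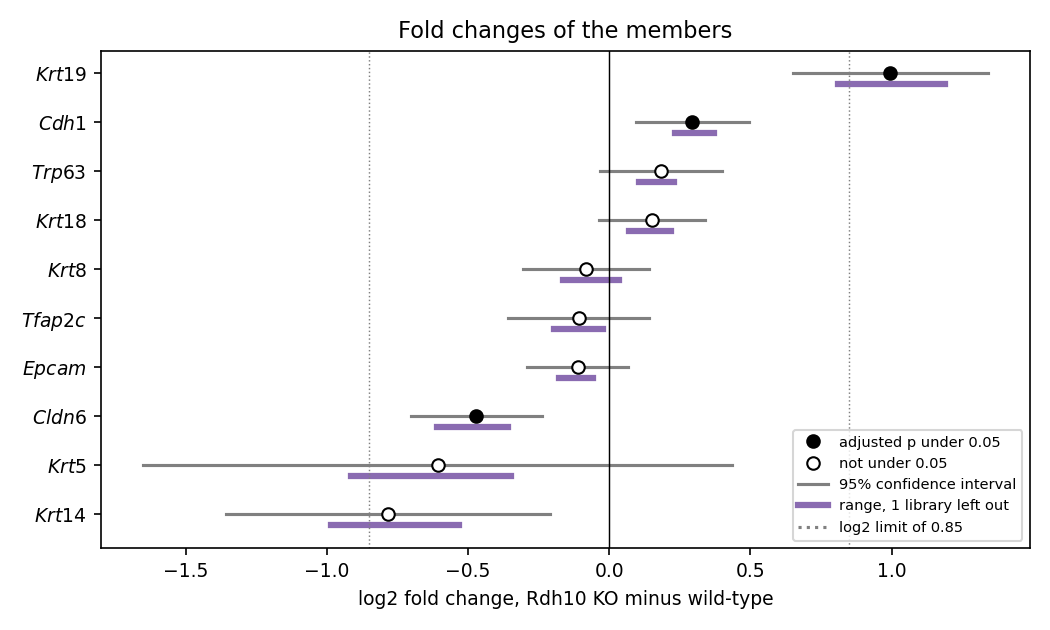
Log2 difference (horizontal axis, *Rdh10* KO minus wild-type) of each of the 10 genes with its 95% confidence interval (grey) and, as a purple bar, the range when 1 library is left out. Filled points have an adjusted p-value under 0.05 (*Krt19*, *Cdh1* and *Cldn6*), and *Krt19* is the only point beyond the dotted limit of 0.85.

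Of the transcription factors, *Trp63*, the regulator of epidermal fate and stratification, had 524, 537 and 476 normalized counts across the wild-type pools and 556, 546 and 647 in the *Rdh10* KO pools. The groups were separate by a narrow margin, 537 against 546, and the log2 difference of 0.18 (SE 0.10) had an adjusted p-value of 0.238 (limma). One value per gene was deposited, so the isoforms of *Trp63* with and without the transactivation domain were not told apart. *Tfap2c*, an AP-2 factor of surface ectoderm and trophoblast, had 476, 443 and 382 in the wild-type pools and 355, 432 and 419 in the *Rdh10* KO pools. Its groups overlapped, and its log2 difference of −0.11 had an interval of −0.36 to 0.14 (adjusted p = 0.591, limma). Its relative *Tfap2a*, an AP-2 factor of surface ectoderm and neural crest, is the AP-2 gene that rose. It went from 537 ± 29.1 to 834 ± 15.3 normalized counts (SD, n = 3 each), a log2 difference of 0.64 (SE 0.09, adjusted p = 0.000213, limma), and its adjusted p-value was under 0.05 in all 17 alternatives. *Tfap2b* had a log2 difference of −0.20 (adjusted p = 0.108).

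The adhesion and junction genes differed among themselves. *Cdh1* (E-cadherin), the adhesion molecule of epithelial adherens junctions, had 894, 909 and 793 normalized counts across the wild-type pools and 1156, 954 and 1080 in the *Rdh10* KO pools. Its groups did not overlap, and its log2 difference was 0.30 (SE 0.09, adjusted p = 0.0386, limma). Of the 6 analyses with a library left out, 1 kept its adjusted p-value under 0.05, without *Rdh10* KO replicate 2, and the highest was 0.190, without wild-type replicate 3. With a replicate block it was 0.0859. *Epcam*, an adhesion molecule found across epithelia, had 1108, 1187 and 1193 in the wild-type pools and 1176, 997 and 1061 in the *Rdh10* KO pools. These values overlapped, with a log2 difference of −0.11 and an interval of −0.29 to 0.068 (adjusted p = 0.405, limma).

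*Cldn6*, a tight junction claudin of embryonic epithelia, had 1606, 1489 and 1601 normalized counts across the wild-type pools and 1370, 1085 and 967 in the *Rdh10* KO pools. All *Rdh10* KO libraries lay below all wild-type libraries, and they were more spread, 18.2% of their mean against 4.24%. The log2 difference was −0.47 (SE 0.11, 95% confidence interval −0.70 to −0.24, adjusted p = 0.00721, limma). Its direction was the same in all 17 alternatives, its log2 difference lay between −0.61 and −0.36 with a library left out, and its adjusted p-value stayed under 0.05 in 1 of those 6 analyses, without *Rdh10* KO replicate 1 (0.00267), and reached 0.134 without wild-type replicate 1. *Cldn9*, which lies 0.1 kb from *Cldn6*, had 74.3 ± 8.05 normalized counts (wild-type, SD, n = 3) against 73.9 ± 13.2 (*Rdh10* KO, SD, n = 3), with a log2 difference of −0.017. Of the 11 genes within 100 kb of *Cldn6*, 3 had an adjusted p-value under 0.05, all lower in *Rdh10* KO, *Thoc6* (−0.27, adjusted p = 0.0206, limma), *Kremen2* (−0.73, 0.0431) and *Flywch2* (−0.63, 0.00616). Neighbours were listed only when they averaged over 10 normalized counts, and 28.4% of genes that abundant passed, whether higher or lower. Whether the neighbours of *Cldn6* fell more often than other genes was not tested.

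Levels of different genes were compared per length, as RPKM computed from the recovered reads, the merged exon length and all reads on genes. In wild-type, *Krt18* was highest at 51.2 ± 3.21, followed by *Cldn6* (46.5 ± 2.06), *Krt8* (37.0 ± 3.52), *Epcam* (27.1 ± 1.06), *Cdh1* (9.67 ± 0.70), *Krt19* (9.05 ± 1.14), *Tfap2c* (6.02 ± 0.67), *Trp63* (3.12 ± 0.20), *Krt14* (2.53 ± 0.56) and *Krt5* (0.394 ± 0.116; SD, n = 3). The ranges of *Cdh1* and *Krt19* overlapped in wild-type, as did those of *Trp63* and *Krt14*, and all other neighbours in this order were apart. *Krt18* and *Cldn6* were barely so, with the lowest wild-type library at 47.82 for *Krt18* and the highest at 47.79 for *Cldn6*. In *Rdh10* KO, *Krt19* stood at 18.5 ± 4.87, above *Cdh1* (11.9 ± 1.26) in every library and overlapping with *Epcam* (25.2 ± 2.31), and *Cldn6* (34.0 ± 6.22) overlapped with *Krt8* (35.3 ± 5.16). *Krt8* and *Krt18* made up most of the keratin signal of the 5 keratin genes in both groups, 88.1% ± 0.872 in wild-type and 82.1% ± 3.45 in *Rdh10* KO. The share of *Krt19* was 9.07%, 9.48% and 8.51% per wild-type library, against 12.7%, 18.0% and 18.2% per *Rdh10* KO library.

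Ratios within a library do not depend on how much epithelium it holds, as long as both genes come from the same cells. The 11 ratios computed were chosen after the values of the genes had been seen, and an exact permutation test, two-sided, was run for each. *Krt19* to *Krt18*, per length, was 0.178, 0.190 and 0.162 in the wild-type pools and 0.246, 0.352 and 0.366 in the *Rdh10* KO pools. *Krt18* to *Krt8* was 1.39 ± 0.0567 (wild-type, SD, n = 3) against 1.63 ± 0.116 (*Rdh10* KO, SD, n = 3), a smaller shift in which the groups also did not overlap. The type I chains together (*Krt14*, *Krt18*, *Krt19*) stood to the type II chains (*Krt5*, *Krt8*) at 1.67, 1.66 and 1.72 in wild-type and at 1.90, 2.39 and 2.27 in *Rdh10* KO. Adding *Krt7*, a further type II chain of simple epithelia, gave 1.44 ± 0.0134 and 1.88 ± 0.209. *Krt14* to *Trp63* was 0.807 ± 0.135 in wild-type and 0.418 ± 0.102 in *Rdh10* KO. *Cldn6* to *Epcam* was 1.72 ± 0.125 and 1.35 ± 0.166, and *Cdh1* to *Epcam* was 0.358 ± 0.0352 and 0.473 ± 0.0148. For 10 of the ratios the groups did not overlap (p = 0.1 each, exact permutation test, 0.11 after adjustment over the 11). Several of these share *Krt19*, and most hold a gene whose own groups did not overlap, so they are not independent tests. Their separation largely repeats that of single genes, and how often ratios of other genes separate was not computed. The exception was *Cdh1* to *Cdh2*, the cadherin of neural and mesenchymal cells, at 0.506 ± 0.0190 and 0.496 ± 0.112 (p = 0.8, exact permutation test).

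**Figure D3:**
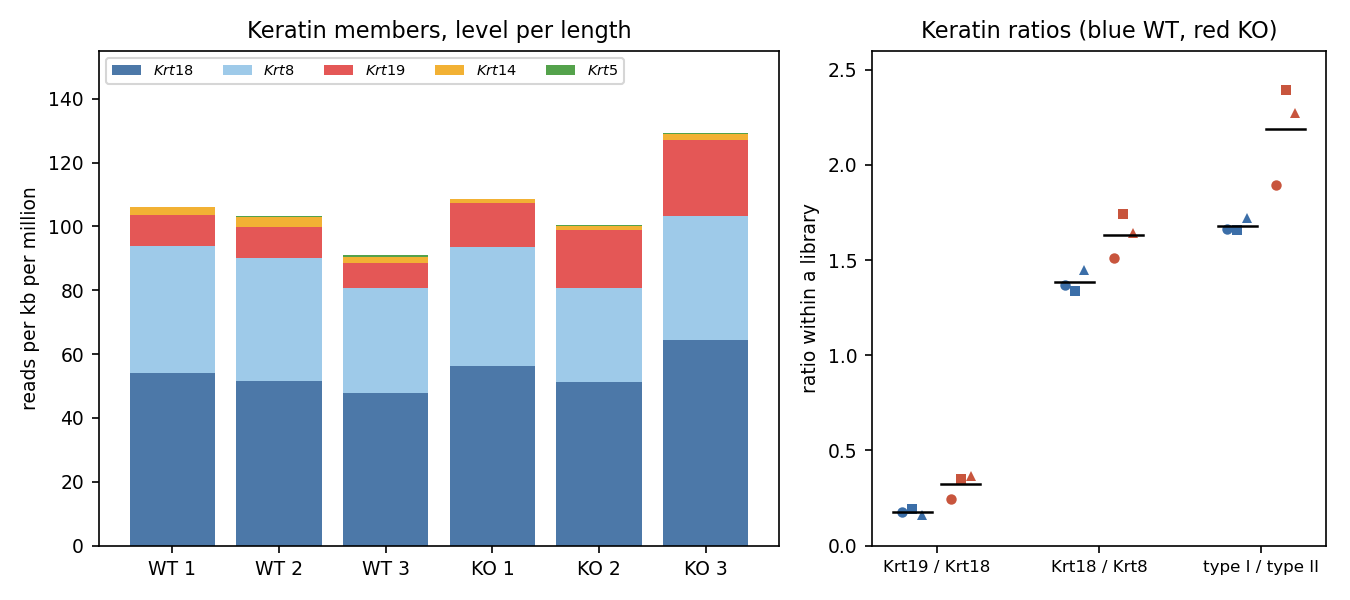
Left, level of the 5 keratin genes per length, stacked for each library. Right, 3 ratios within each library on a linear axis from 0, with wild-type in blue, *Rdh10* KO in red and black bars for means. The *Krt19* layer is thicker in the 3 *Rdh10* KO libraries, and the ratio of type I to type II chains is 1.66 to 1.72 in wild-type and 1.90 to 2.39 in *Rdh10* KO.

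Across the keratin family, 32 genes named as keratins were in the table and 13 of them had at most 3 reads in every library. Of the 10 with a mean above 10 normalized counts, 1 had an adjusted p-value under 0.05 in the direction of a rise, *Krt19*, and 1 in the direction of a fall, *Krt10*, a type I keratin of the suprabasal epidermis. *Krt10* had 131, 150 and 129 normalized counts across the wild-type pools and 80.2, 94.9 and 62.4 in the *Rdh10* KO pools, with a log2 difference of −0.80 (SE 0.19, adjusted p = 0.00904, limma). Its adjusted p-value stayed under 0.05 in 2 of the 6 analyses with a library left out and rose to at most 0.0999 in the others. *Krt7* had a log2 difference of −0.15 (adjusted p = 0.233, limma), and *Krt15*, which lies 4.9 kb from *Krt19*, one of 0.12 (adjusted p = 0.874). Among 15 claudins above the same mean, *Cldn12* (log2 difference 0.39) had an adjusted p-value under 0.05 in the direction of a rise, and *Cldn6* and *Cldn4* (−0.34, adjusted p = 0.0367) in the direction of a fall. Neighbours within 100 kb of the 10 genes were examined only where their mean was above 10 normalized counts. *P3h2*, a collagen-modifying enzyme gene 67.2 kb from *Trp63*, was called higher (log2 difference 1.18). No other neighbour above that mean was called apart from *Krt19*, itself a neighbour of *Krt14*.

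In 6 further lists of epithelial genes, 73 genes were tested, of which 3 were called higher and 0 lower, and 11 and 3 had an adjusted p-value under 0.05 in these directions, beside 2.41% and 0.886% of all genes called and 10.3% and 9.12% with such an adjusted p-value. Their median log2 difference was 0.07. Among 16 transcription factors, *Tfap2a* alone had an adjusted p-value under 0.05. *Grhl2*, a grainyhead-like factor that maintains epithelial junction genes, had a log2 difference of 0.23 (adjusted p = 0.141, limma), and *Grhl3*, of the same family, 0.017 (0.965). The tight junction claudins *Cldn3* (−0.027) and *Cldn7* (−0.15) and the P-cadherin gene *Cdh3* (−0.010) had adjusted p-values of 0.936, 0.452 and 0.964 (limma).

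Of 9 desmosome genes tested, *Pkp2*, a plakophilin of the desmosomal plaque, was called higher (414 ± 8.56 against 765 ± 150 normalized counts, SD, n = 3 each, log2 difference 0.87, adjusted p = 0.000391, limma). The log2 difference of *Pkp2* fell as low as 0.77 among the alternatives, and its adjusted p-value was 0.0692 in limma without an intensity trend. *Dsp*, which encodes desmoplakin, the link from the desmosome to keratin filaments, had a log2 difference of 0.64 (adjusted p = 0.00136), with adjusted p-values of up to 0.0585 when a library was left out. Of 14 tight junction genes, the scaffold genes *Tjp1* (0.53), *Tjp3* (0.80) and *Cgn* (0.44) rose, and *Cldn4* (−0.34) fell. In limma without an intensity trend their adjusted p-values were 0.0572, 0.0700, 0.0517 and 0.166, in that order. Of 10 genes of hemidesmosomes and basal lamina anchorage, 4 rose. Over all genes tested, 2.41% were called higher and 10.3% were higher at an adjusted p-value under 0.05 (limma). *Lama5*, a laminin chain of embryonic basement membranes, and *Dst*, a plakin that joins filaments to hemidesmosomes, were called, with log2 differences of 1.02 (SE 0.11, adjusted p = 4.90e-05, limma) and 0.89 (SE 0.11, 0.000109). In limma without an intensity trend the adjusted p-values of *Lama5* and *Dst* were 0.05004 and 0.0599. The integrin gene *Itga6* (0.55) and the plakin gene *Plec* (0.47) rose as well, the latter with an adjusted p-value above 0.05 in 5 of the 6 analyses with a library left out. *Itgb4*, the hemidesmosomal partner of *Itga6*, had 27.9 to 43.7 normalized counts in *Rdh10* KO and 23.5 to 38.9 in wild-type. Among 14 membrane and adhesion genes, *Cd9* (0.52) rose and *Cd24a* (−0.30) fell. With a library left out, the adjusted p-value of *Cd9* stayed under 0.05 in 4 of 6 analyses. That of *Cd24a* did so in 1 of 6 and reached 0.236 (limma). Most of these genes, among them *Tjp1*, *Dst*, *Plec* and *Lama5*, are also used by cells outside the surface ectoderm.

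**Figure D4:**
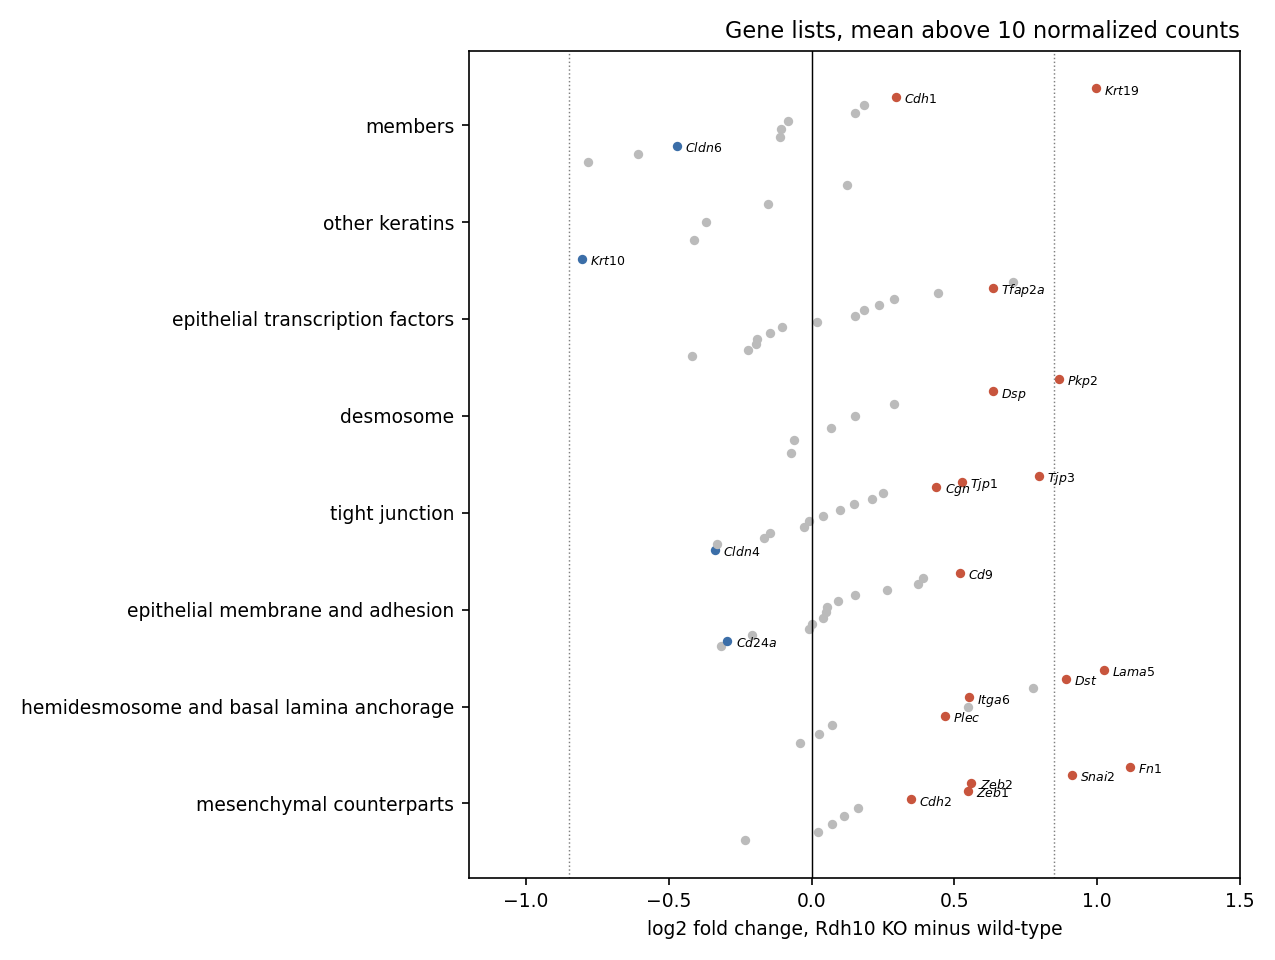
Log2 difference (horizontal axis, *Rdh10* KO minus wild-type) of single genes with a mean above 10 normalized counts, in rows by list, ordered by value from bottom to top within a row. Genes with an adjusted p-value under 0.05 are named and colored red (higher) or blue (lower), others are grey, and dotted lines mark the limit of 0.85. *Krt19* at 0.996 is the highest point among the 10 members, and colored points in the anchorage and mesenchymal rows all lie on the right.

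Among 10 genes usually set against the epithelial state, 5 had an adjusted p-value under 0.05 in the direction of a rise and 0 of a fall (limma, edgeR and DESeq2 alike, and 0 at an unadjusted p-value under 0.05), with a median log2 difference of 0.26. Over all genes tested, 10.3% were higher and 9.12% lower at an adjusted p-value under 0.05 (limma). All 10 have a mean above 10 normalized counts, and 28.4% of genes above that mean passed in either direction. *Fn1*, which encodes fibronectin (log2 difference 1.11, adjusted p = 1.11e-05, limma), and *Snai2*, a repressor of *Cdh1* in neural crest (0.91, 0.000227), were called, although *Snai2* had an adjusted p-value of 0.0515 in limma without an intensity trend. *Zeb1* (0.55), *Zeb2* (0.56) and *Cdh2* (0.35) rose within the fold limit, *Cdh2* with an adjusted p-value above 0.05 in 5 of the 6 analyses with a library left out. *Vim* (0.16, 0.297) and *Snai1* (0.021, 0.924) did not pass. *Cdh1* was higher in *Rdh10* KO together with *Snai2*, *Zeb1* and *Zeb2*, all known as its repressors. Whether these transcripts came from the same cells of the bulk tissue was not tested.

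Other epithelia and cells that carry these genes could share the dissected tissue, and the part of these cells in the differences above was not tested. The counts below stand beside 2.41% of all genes tested called higher and 0.886% called lower. Without the fold limit the shares were 10.3% and 9.12%. Of 9 trophoblast markers tested, *Ascl2* (0 to 2.23 normalized counts in wild-type, 21.5 to 62.9 in *Rdh10* KO), *Prl8a2* (0 in every wild-type library, 13.9 to 32.2) and *Prl3d1* (0 in every wild-type library, 2.13 to 7.16) were called higher. *Eomes*, which the forebrain also uses, was called lower (36.1 against 5.56 on average). *Prl3b1* went from a mean of 31.9 to 14.7 with no overlap (log2 difference −1.16, adjusted p = 0.0646, limma), *Gcm1* had 0.94 to 2.23 in wild-type and 0 in every *Rdh10* KO library, and the edgeR tests called 2 of the list lower. The median log2 difference of the list was −0.22. The list summed to 106 to 125 normalized counts in wild-type and 114 to 144 in *Rdh10* KO, and 3 of its 11 genes in the table had at most 3 reads in every library. Of 12 yolk sac endoderm markers, *Rbp4* alone passed an adjusted p-value of 0.05 (log2 difference 0.78, adjusted p = 0.0400, limma). It stayed under 0.05 in 1 of the 6 analyses with a library left out. The list summed to 160 to 182 and 194 to 262. Of 10 pharyngeal and oral endoderm markers, *Sox17*, which endothelium also uses, was called higher (log2 difference 1.08, adjusted p = 0.0523 in limma without the trend), and the sums were 1757 to 2096 and 1874 to 2472. *Foxa1* and *Foxa2*, endoderm factors, had log2 differences of 0.17 and 0.39 with adjusted p-values of 0.542 and 0.0591 (limma). Of 8 lens and placode markers tested, *Prox1* (0.41) rose and *Pitx1* (−0.34, adjusted p = 0.0499) fell, under 0.05 in 1 and 0 of the 6 analyses with a library left out, with sums of 1949 to 2147 and 1652 to 2139, and the lens crystallin gene *Cryaa* had at most 1 read. Of 10 heart markers, *Actc1* (1.46) was called higher, under 0.05 in 1 of those 6 analyses, with sums of 103 to 147 and 175 to 318. *Actc1* itself had means of 51.6 and 152. *Myl7* went from 21.9 to 9.27 with no overlap (log2 difference −1.23, adjusted p = 0.0788, limma), and both edgeR tests called 1 heart marker lower. Of 6 mesothelium markers 0 passed in limma (2 at an unadjusted p-value under 0.05, and 2 in the edgeR likelihood ratio test), with sums of 374 to 438 and 412 to 427.

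The neural, mesenchymal and blood cells of the dissection were also measured. Of 9 neuroepithelium markers, 2 rose and 2 fell, with sums of 17880 to 18980 and 14390 to 18510. Over all genes tested, 10.3% were higher and 9.12% lower at an adjusted p-value under 0.05 (limma). Of 8 mesenchyme markers, *Alx4* was called lower and *Col3a1* rose. Of 8 erythroid markers 0 passed in limma (1 at an unadjusted p-value under 0.05, and 1 in edgeR and DESeq2), but their sums ranged from 50620 to 155100 in *Rdh10* KO, with replicate 1 the lowest, and from 99750 to 134100 in wild-type. Without *Rdh10* KO replicate 1, log2 differences were 1.19 for *Krt19*, 0.23 for *Cdh1* (adjusted p = 0.145, limma) and −0.61 for *Cldn6*.

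The mean pattern of the 10 genes over the 6 libraries had no clear direction between the groups, with centered log2 values of 0.022, 0.11 and −0.055 in wild-type and −0.090, −0.13 and 0.14 in *Rdh10* KO. Of 11210 other genes with a mean above 100 normalized counts, those most like this pattern by Pearson's r over the 6 libraries were *Stmn4* (0.996), *Csrp2* (0.988), *Mbd2* (0.972), *Gga1* (0.965) and *Myt1* (0.964). These are descriptions of 6 points that share their libraries and scaling.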

How the data were processed

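RNA-seq was analysed for 6 libraries, 3 wild-type and 3 *Rdh10* KO, grouped by their labels. Per the study's methods, the authors made directional, poly(A)-selected libraries, aligned reads to mm10 with TopHat, estimated abundance by Expectation–Maximization and normalized by FPKM. The deposited signal values are instead each gene's whole reads after division by a library factor, with no term for gene length (checked on the values), and are called normalized counts here. The factors equal median-of-ratios size factors (0.850 to 1.40), and at least 99.996% of values gave whole reads within 0.0055. One of 26438 lines names no gene and was left out.

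Genes with a mean above 0.5 were tested on log2(value + 0.1), a scale whose pseudocount can shrink or inflate the change of a gene near 0, with limma 3.58.1 (R 4.3.3, eBayes with intensity trend) and Benjamini–Hochberg adjustment over all genes. The alternatives were pseudocounts of 1 and 0.01, no filter, a mean above 10, TMM scaling, quantile normalization, no trend, edgeR 4.0.16 and DESeq2 1.42.0 on recovered reads, a replicate block, and leaving out each library. Scripts were tested on simulated data. Permutation tests and plots used Python 3.11.15. Exon lengths and positions came from GENCODE M21 (which held 99.44% of the genes) and promoters from RefSeq.

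The 10 genes and all lists were chosen with earlier results of these data known. Besides the 10 genes and *Rdh10*, the rule named the called genes of each list, at most 5 of lowest adjusted p in epithelial lists and 3 in others, 9 listed genes called or not (1 of them is not reported here), and the 5 genes of most alike pattern. Other genes and the ratios were chosen after their values were seen. Replicates differed by more than sampling noise (chi-square per degree of freedom 2.73 to 17.4).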

Additional observations from a re-analysis of the deposited data

How the results depend on the processing

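The log2 differences of *Krt19*, *Cdh1*, *Cldn6* and *Krt14* kept their direction in all 17 alternatives, and that of *Rdh10* was called in each. The adjusted p-values were less stable with few libraries. The number of the 10 genes called, 1 as reported, was 2 with quantile normalization (1 of them lower) and 0 in limma without an intensity trend, and lay between 0 and 1 with a library left out, in each case 0 to 1 higher and 0 lower. The number with an adjusted p-value under 0.05, 3 as reported, was 0 without the trend (0 higher and 0 lower) and between 0 and 2 with a library left out (0 to 2 higher, 0 to 1 lower). The number of these that were lower, 1 as reported, was 2 with a pseudocount of 1, with a filter at a mean above 10, with quantile normalization, with both edgeR tests and with DESeq2, *Krt14* being added. Of the other epithelial genes, 3 were called as reported, all higher. Without the trend 1 was called (0 higher, 1 lower), with quantile normalization 3 were called (2 higher, 1 lower), and with a library left out the number lay between 1 and 4 (1 to 4 higher, 0 to 1 lower), the lowest without *Rdh10* KO replicate 3. The log2 difference of *Krt8* lay between −0.1629 and 0.034 with a library left out, and was above 0 only without *Rdh10* KO replicate 2 (adjusted p = 0.8504, limma). Among the called genes of the other lists, *Snai2*, *Sox17*, *Ascl2* and *Actc1* lost their calls without the trend (adjusted p = 0.0515, 0.0523, 0.0734 and 0.148, limma). So did *Pkp2*, *Dst* and *Lama5* (adjusted p = 0.0692, 0.0599 and 0.05004, limma). Depth limits *Krt5*, with 7 to 22 reads a library.

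Replicate numbers gave no sign of pairing the libraries (correlations of same-numbered libraries' deviations −0.026, −0.035 and −0.074). A shared batch that acts on few genes would not show in these correlations, and the labels name none. With a replicate block, 1 of the 10 genes was higher at an adjusted p-value under 0.05 in place of 2, *Cdh1* being lost (adjusted p = 0.0859, limma), 1 was lower, 1 was called, and 3 other epithelial genes were called.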
